A study of Mus musculus with 72 samples.

Results

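The 33 genes described here act in the endoplasmic reticulum (ER) of the liver cell, where secreted and membrane proteins are imported, folded and, when folding fails, taken out for degradation. They were chosen by name as a group for ER folding and stress, and all 33 were found among the 51912 genes of the count table and were tested among 19362 expressed genes. Liver RNA was sequenced from 72 mice, 1 library per animal, in 12 groups of 6 formed by 2 strains (C57BL/6J and DBA/2J), 2 sexes (M and F) and 3 diets (Control, Medium Protein and Low Protein). All groups were inbred mice that were given their diet at 10 weeks of age for 13 weeks, were killed at 23 weeks after a fast of 16 h, and were housed at 22 °C. The labels name no transgene, engineered deletion or drug for any group, and the sources used here do not give the protein content of each diet. The samples are whole liver. In such samples, fewer cells of a type and less RNA per cell cannot be told apart, gene counts do not show the spliced form of Xbp1 or the activity of a protein, and codes that read like plate positions run in the order of the groups. A fit with the row letter of these codes as a term moved no count of called genes by over 1.5 times, and the rest of the position cannot be told apart from the groups.

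Proteins enter the ER through the SEC61 channel, lose their signal peptide, and are folded by the chaperones BiP (Hspa5) and GRP94 (Hsp90b1), by disulphide isomerases and by the lectin chaperones calnexin and calreticulin. Chains that do not fold are pulled back to the cytosol and degraded, a route called ER-associated degradation. When unfolded chains accumulate, the sensors IRE1 (Ern1), PERK (Eif2ak3) and ATF6 start the unfolded protein response, in which IRE1 splices Xbp1 mRNA, PERK slows translation, and XBP1 and cleaved ATF6 act on promoters of the folding genes. The liver, which secretes most plasma proteins, has a large ER and uses this system continuously.

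Many of these genes are known to share a promoter element, the ER stress response element (ERSE), which is why the sequences are shown first. RefSeq promoters of build GRCm38.p6 (windows of 300 bases) were found for 27 of the 33 genes, and none for Atf6, Manf, Hyou1, Derl1, Sec61a1 or Sec11c. An ERSE, searched on both strands as CCAAT and CCACG separated by 9 bases, was present in 9 of the 27 (33.3%) and in 37 of 27025 genes with a promoter in the table (0.137%). It was present in 39 of all 32851 promoters of that length (0.119%). The matches, read 5′ to 3′ in the direction of the element with its fixed bases in capitals, were these.

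Hspa5: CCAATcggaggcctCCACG
Calr: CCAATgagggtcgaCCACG
Derl3: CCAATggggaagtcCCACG
Hsp90b1: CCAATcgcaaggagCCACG
Hsp90b1, second match: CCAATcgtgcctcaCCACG
Canx: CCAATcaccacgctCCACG
Pdia6: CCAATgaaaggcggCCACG
Dnajc3: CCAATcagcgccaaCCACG
Creld2: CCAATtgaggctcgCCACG
Syvn1: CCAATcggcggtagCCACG

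The Hspa5 element lies at chr2:34772025-34772043, beginning 65 bases before the transcription start. Elements of the other genes began between 44 bases (Syvn1) and 212 bases (Hsp90b1) before it. A related element, ERSE-II (ATTGG and CCACG separated by 1 base, both strands), was found in 2 of the 27 genes, Herpud1 and Dnajb11, and in 12 genes of the table (0.0444%). The XBP1 element TGACGTGG was found in 0 of the 27 and in 0.714% of genes of the table. An ATF4-type element (TGATG and AA separated by 1 base) was found in 1 of the 27, Herpud1, and in 4.50% of genes. A match describes letters in a window and is not a measured binding site. For the genes with the smallest p under the Low Protein diet that hold an ERSE, the 250 bases before the start are given on the gene's strand, with the element's fixed bases in capitals. They lie at chr10:75893148-75893397 (Derl3), chr12:17266339-17266588 (Pdia6) and chr15:88819396-88819645 (Creld2), each on the plus strand, and the elements of Derl3 and Creld2 lie on the opposite strand.

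Derl3: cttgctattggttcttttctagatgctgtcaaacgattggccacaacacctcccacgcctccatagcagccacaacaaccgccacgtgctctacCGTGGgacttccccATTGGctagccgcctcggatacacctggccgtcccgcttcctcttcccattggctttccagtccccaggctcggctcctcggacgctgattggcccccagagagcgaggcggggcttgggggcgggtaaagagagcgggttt
Pdia6: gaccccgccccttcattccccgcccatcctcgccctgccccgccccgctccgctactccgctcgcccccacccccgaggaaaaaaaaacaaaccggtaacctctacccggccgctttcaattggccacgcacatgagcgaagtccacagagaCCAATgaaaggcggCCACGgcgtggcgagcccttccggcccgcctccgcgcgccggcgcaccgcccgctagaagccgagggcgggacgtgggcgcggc
Creld2: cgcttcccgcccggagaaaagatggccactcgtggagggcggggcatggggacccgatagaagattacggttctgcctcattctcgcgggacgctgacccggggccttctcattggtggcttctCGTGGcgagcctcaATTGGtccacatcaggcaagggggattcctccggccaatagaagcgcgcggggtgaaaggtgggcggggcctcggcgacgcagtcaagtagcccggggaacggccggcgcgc

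Levels are given as CPM, counts scaled to a common library size. Compared per kilobase of exon, the mean level over 72 libraries was highest for P4hb, the major disulphide isomerase, at 279.7 CPM per kb, ahead of Hsp90b1 at 131, calreticulin (Calr) at 123, Herpud1 at 106 and Hspa5 at 104. The lowest were Sec11c, a signal peptidase subunit, at 1.33, Fkbp11, a prolyl isomerase, at 1.23, and Derl3, a derlin of the degradation route, at 0.790 CPM per kb. The summed level of the 33 genes had group medians of 4718, 5637 and 5461 CPM in C57BL/6J M on Control, Medium Protein and Low Protein, and of 3860, 3742 and 3806 CPM in C57BL/6J F. In DBA/2J M the medians were 4942, 4917 and 4814 CPM, and in DBA/2J F 3696, 3689 and 3795 CPM. The 6 M medians were all above the 6 F medians.

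**Figure D1:**
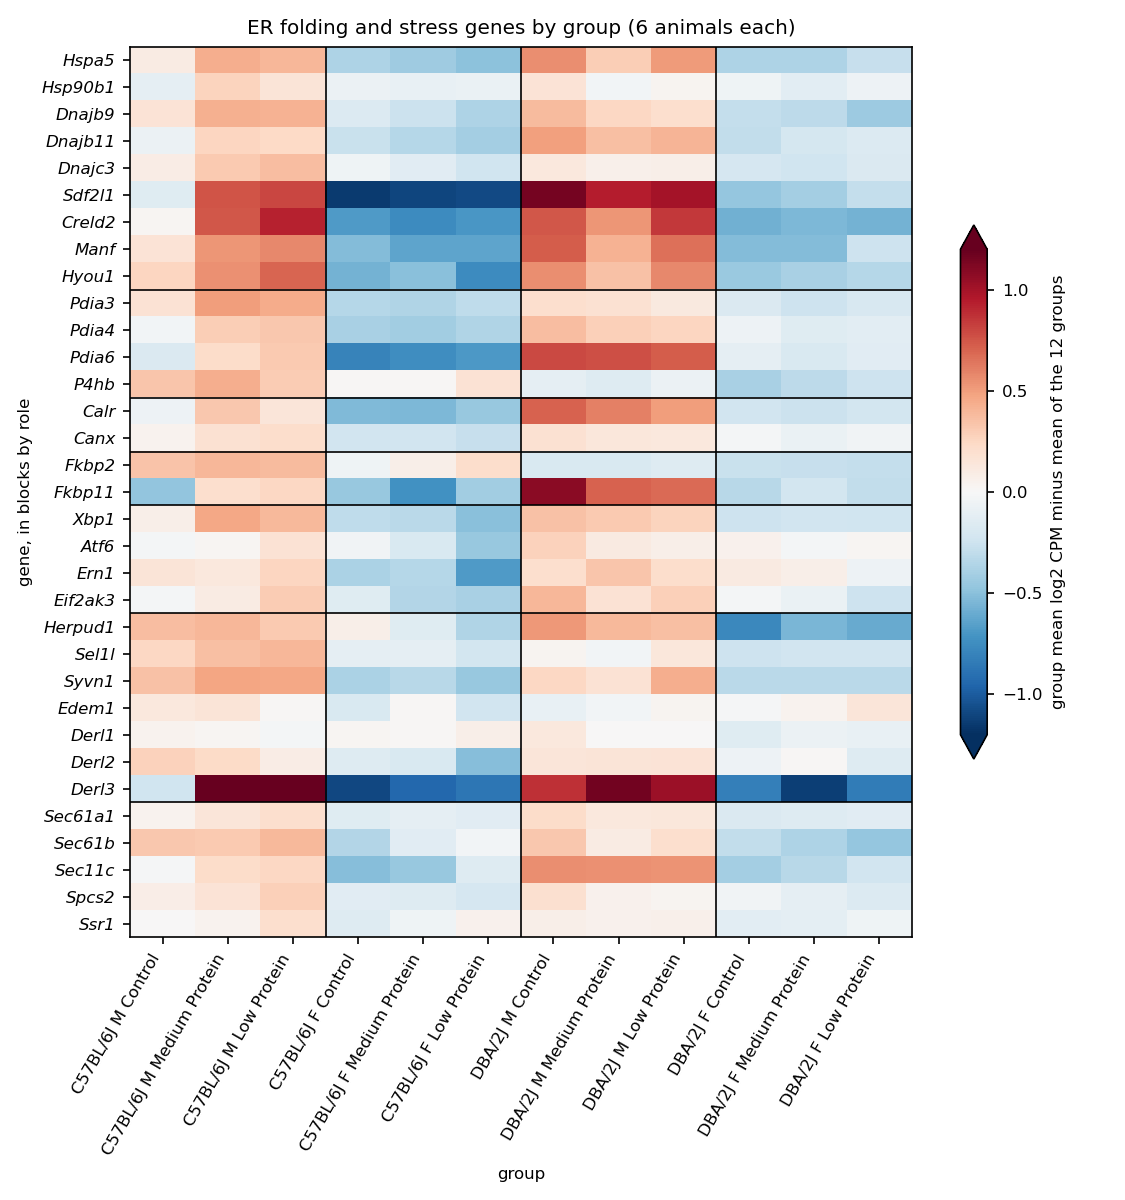
Mean log2 CPM of each of the 33 genes in each of the 12 groups (6 animals each), minus the mean over the 12 groups (colour, log2 units). Rows are genes in blocks by role and columns are groups. Most rows are redder in the M columns under TMM scaling, and the 33 genes' median difference between M and F on Control was 0.36 in C57BL/6J and 0.44 in DBA/2J.

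Some libraries stood apart. Library totals ran from 26.9 to 38.4 M counts (median 32.4 M). Hepatocyte markers summed to 31392 to 85496 CPM. The lowest was C57BL/6J F Low Protein replicate 1, with 52662 CPM as the next, and the same library had the highest sums of macrophage markers (976 CPM, the next 499) and of B and plasma cell markers (52.2 CPM, the next 36.9). Of 10 pancreatic acinar markers, 1 (Cela1) passed the filter on low counts, and of 10 B and plasma cell markers 9 passed. In 4 libraries, all of M, 5.25 to 21.8% of counts came from ribosomal-like RNA, against a median of 0.148% over all 72 libraries. They were C57BL/6J M Control replicates 1 and 6, C57BL/6J M Medium Protein replicate 6 and DBA/2J M Control replicate 4. Counts of calls are given below with and without them. The library of DBA/2J M Low Protein replicate 5 had all 33 genes above its group mean, with a summed level of 8279 CPM.

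Under TMM scaling, more of the 33 genes were called between the sexes than between the diets. In the tests below, a call means a p below 0.05 in edgeR's quasi-likelihood fit after Benjamini-Hochberg adjustment over the 19362 genes. On the Control diet, 15 of the 33 genes were higher in M and 0 lower in C57BL/6J, where 20.8% of all genes were called and 11.6% were called higher in M. In DBA/2J, 26 were higher in M and 0 lower, where 18.3% of all genes were called and 10.4% were called higher. The median log2 difference of the 33 genes was 0.36 and 0.44. The comparisons on the other diets were added after the data were seen. On Medium Protein 26 genes were higher in C57BL/6J M (16.5% of all genes called, 10% higher) and 18 in DBA/2J M (13.2% called, 7.33% higher). On Low Protein the counts were 27 in C57BL/6J (28.2% called, 14.4% higher) and 21 in DBA/2J (18.8% called, 10.7% higher). No gene of the 33 was called lower in M in any of the 6 comparisons.

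Without the 4 libraries rich in ribosomal-like RNA the counts on Control were 17 and 26, on Medium Protein 26 and 18, and on Low Protein 27 and 21. For strain on Control they were 12 in M (9 higher in DBA/2J) and 4 in F (2 higher), and for Medium Protein and for Low Protein in DBA/2J they were 0. The scale moved the sex counts on Control more. TMM scaling factors were 0.618 to 1.04 (median 0.932) in M and 0.983 to 1.17 (median 1.09) in F. Scaled by library totals alone, the median of all genes moved by -0.34 in C57BL/6J and -0.28 in DBA/2J on Control, and then 5.32% and 7.59% of called genes were higher in M, in place of 55.8% and 57.1%. The 33 genes' median difference was then 0.02 and 0.16, and 4 and 14 of them were called (1 and 13 higher in M). Of all 19362 genes, 8941 and 7288 were called on that scale. In C57BL/6J the share of the 33 genes called was thus below that of all genes. On Medium Protein the median of all genes moved by -0.25 and -0.26, and 10.1% and 8.15% of called genes were higher in place of 60.5% and 55.6%. There 16 and 10 of the 33 were called, beside 6469 and 6476 of all genes. On Low Protein the shifts were -0.10 and -0.18, and the shares 30.6% and 18.7% in place of 51.1% and 57.2%. Called were then 23 and 17 of the 33, beside 5267 and 4759 of all genes. Among genes called on Control, library totals turned the sign of P4hb, Canx and Edem1 in C57BL/6J and of Atf6, Derl1, Spcs2 and Ssr1 in DBA/2J. The direction of the sex difference given here is therefore relative to the other genes.

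**Figure D2:**
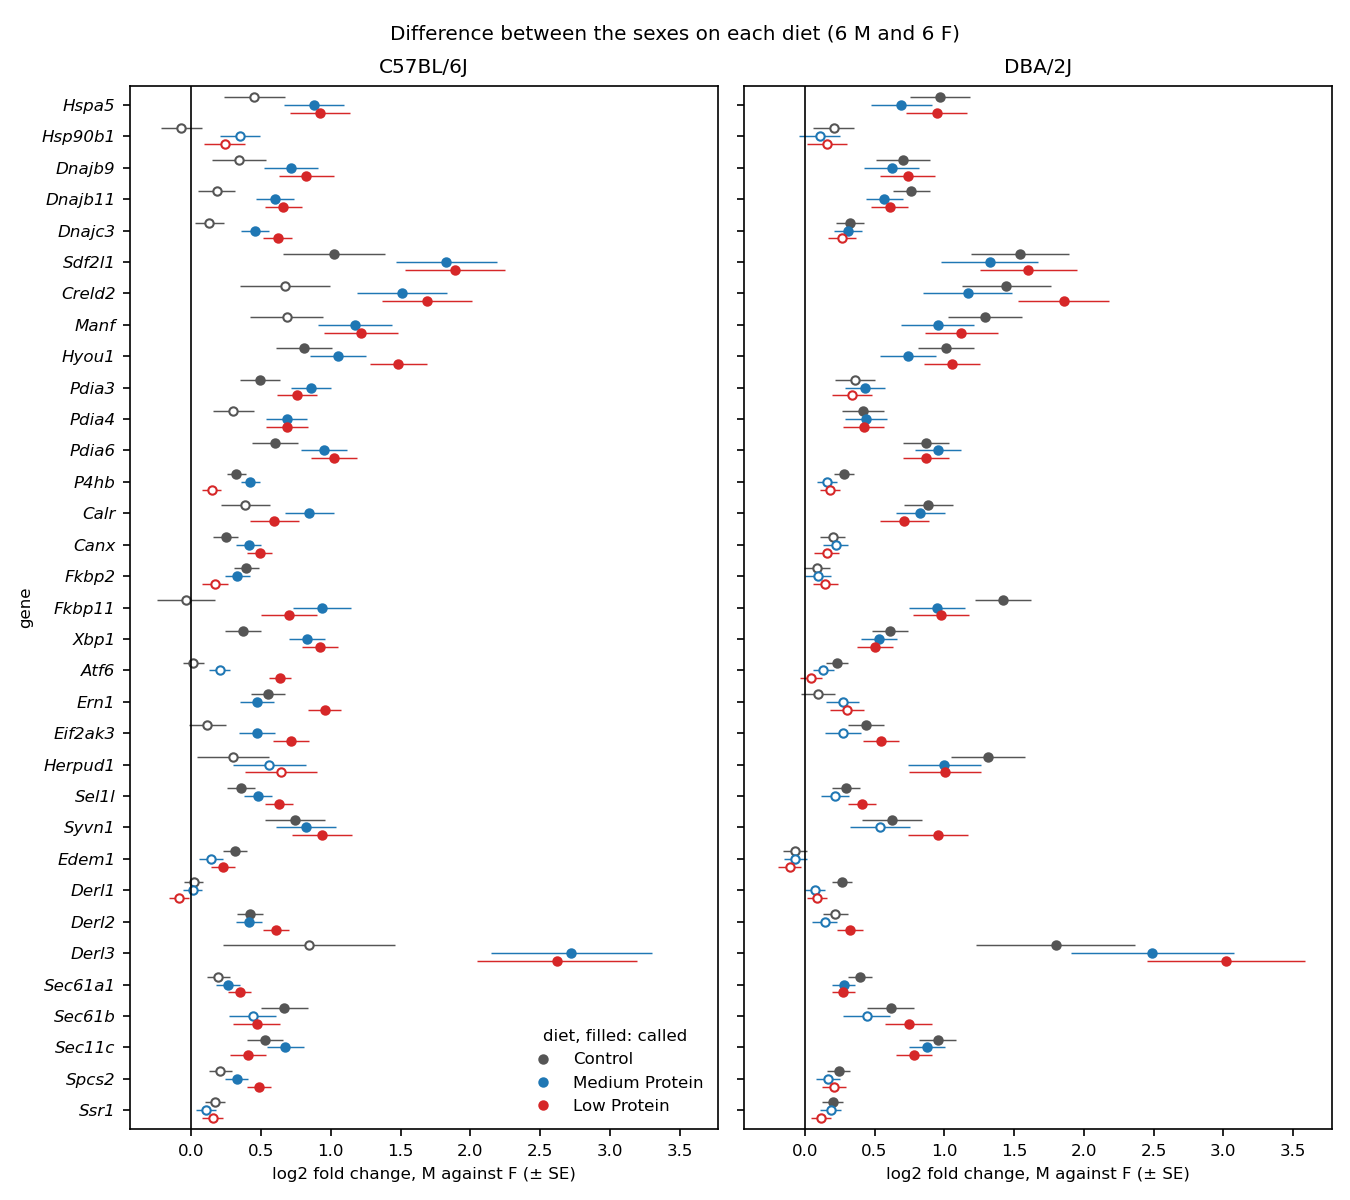
Log2 fold change of M against F with its standard error for each of the 33 genes (rows), on each diet (colours) in C57BL/6J (left) and DBA/2J (right). Filled points were called (TMM scaling), and no called point lies to the left of 0, while by library totals 7 called values on Control change sign. Derl3 reached 2.62 in C57BL/6J and 3.02 in DBA/2J on Low Protein, while Hsp90b1 was called in none of the 6 comparisons.

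Members differed in how regularly they were called. Pdia6, Xbp1, Sdf2l1, Hyou1 and Sec11c were higher in M in all 6 comparisons, 12 genes in 5, 5 genes in 4 and 5 genes in 3. Atf6, Edem1 and Fkbp2 were called in 2 comparisons, Derl1 and Ssr1 in 1, and Hsp90b1 in 0. Genes called higher in M whose M and F libraries did not overlap numbered 4 of the 33 in C57BL/6J and 15 in DBA/2J on Control, where 4.63% and 5.07% of all genes met the same rule. On Medium Protein they numbered 11 and 9 (3.57% and 3.7% of all genes), and on Low Protein 17 and 5 (5.53% and 4.6%).

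Among the BiP and GRP94 chaperone systems, 2 of 9 genes were called on Control in C57BL/6J and 8 of 9 in DBA/2J. Hspa5 itself had 199 to 449 CPM (median 331) in C57BL/6J F on Control and 348 to 566 (median 414) in M, which overlap and were not called. In DBA/2J F it had 246 to 438 CPM (median 315) and in M 473 to 961 (median 531). Every DBA/2J M library was thus above every F library, a log2 difference of 0.97 ± 0.22 (SE, adjusted p = 0.000635). Dnajb11, a co-chaperone of BiP, had 27.6 to 50.7 CPM (median 34.2) in DBA/2J F on Control and 56.0 to 68.7 (median 56.8) in M. Its groups did not overlap, and it differed by 0.76 ± 0.13 (adjusted p = 1.28e-05). In C57BL/6J, Dnajb11 had 26.5 to 44.2 CPM (median 36.5) in F and 34.2 to 45.8 (median 41.3) in M, overlapping and not called. Sdf2l1, which works with Dnajb11, was higher by 1.02 in C57BL/6J M and 1.54 in DBA/2J M, and Hyou1, an exchange factor of BiP, by 0.81 and 1.01. Creld2, Manf, Dnajb9 and Dnajc3 were called on Control in DBA/2J but not in C57BL/6J. That contrast was tested as a difference between the strains for each gene, and only Dnajb11, Fkbp11 and Edem1 of the 33 passed, as given below. Hsp90b1 had log2 differences between -0.07 and 0.35 over the 6 comparisons.

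Of the disulphide isomerases, P4hb, Pdia3 and Pdia6 were called on Control in C57BL/6J, and P4hb, Pdia4 and Pdia6 in DBA/2J. P4hb had 693 to 889 CPM (median 799) in C57BL/6J F and 875 to 1116 (median 989) in M. The groups touched at their edges, and the difference was 0.32 ± 0.07 (adjusted p = 0.000486), or -0.0018 by library totals. Pdia6 had 72 to 129.6 CPM (median 87.1) in DBA/2J F and 149 to 176 (median 169) in M. No M library fell among the F libraries, and the difference was 0.87 ± 0.16 (adjusted p = 5.18e-05). The lectin chaperones Calr and Canx, which hold glycoproteins during folding, were each called in 1 strain on Control, Calr in DBA/2J (0.88) and Canx in C57BL/6J (0.25, or -0.0798 by library totals).

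The prolyl isomerases, which turn proline bonds during folding, were each called in 1 strain on Control. Fkbp11 had 1.62 to 3.25 CPM (median 2.38) in DBA/2J F on Control and 3.64 to 8.07 (median 6.74) in M. Its M and F libraries were apart, with a difference of 1.42 ± 0.20 (adjusted p = 1.01e-07). In C57BL/6J the same gene had 1.42 to 3.16 CPM (median 2.31) in F and 1.5 to 2.58 (median 2.34) in M, one range inside the other. Fkbp2 had 9.20 to 12.7 CPM (median 10.6) in C57BL/6J F and 11.6 to 16.5 (median 14.7) in M, overlapping, with a difference of 0.39 ± 0.09 (adjusted p = 0.000993). In DBA/2J on Control, Fkbp2 was not called.

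Of the sensors, Ern1 had 38.3 to 53.6 CPM (median 42.7) in C57BL/6J F on Control and 49.8 to 89.6 (median 63.2) in M. Of the 6 M libraries 4 lay above every F library, and the difference was 0.55 ± 0.12 (adjusted p = 0.000502). Xbp1, the transcription factor made from the IRE1-spliced mRNA, was higher in M by 0.37 in C57BL/6J and 0.61 in DBA/2J on Control. Atf6 was called on Control in DBA/2J (0.23 ± 0.08, adjusted p = 0.0269) and on Low Protein in C57BL/6J, where it reached 0.64 ± 0.08 (adjusted p = 1.51e-09).

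In the degradation route, 4 of 7 genes were called on Control in C57BL/6J (Derl2, Edem1, Sel1l, Syvn1) and 5 of 7 in DBA/2J (Herpud1, Derl1, Derl3, Sel1l, Syvn1). Sel1l and Syvn1 form the ubiquitin ligase at the centre of this route. Derl2 had 33.2 to 50.7 CPM (median 39.6) in C57BL/6J F and 48.6 to 64.6 (median 50.6) in M. The highest F library lay among the M libraries, and the difference was 0.42 ± 0.09 (adjusted p = 0.000429). Herpud1 had 91.2 to 203 CPM (median 119.9) in DBA/2J F and 201 to 592 (median 302) in M, a difference of 1.31 ± 0.26 (adjusted p = 0.000125), with ranges that met at their edge. In translocation and signal peptide cleavage, 2 of 5 genes (Sec11c, Sec61b) were called in C57BL/6J and all 5 (with Sec61a1, Spcs2 and Ssr1) in DBA/2J. Sec11c had 4.94 to 8.03 CPM (median 6.52) in DBA/2J F and 11.9 to 14.1 (median 12.4) in M. The groups were well apart, and the difference of 0.95 ± 0.13 had the smallest adjusted p of the 33 genes in that comparison (4.29e-08).

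The sex difference itself differed between the strains for 3 of the 33 genes on Control (8.39% of all genes called), a comparison added after the data were seen. The share of the 33 genes called was close to that of all genes. Taken as DBA/2J minus C57BL/6J, the sex difference was 1.46 ± 0.29 for Fkbp11 (adjusted p = 0.000581) and 0.58 ± 0.19 for Dnajb11 (adjusted p = 0.0413). For Edem1, a lectin that marks chains for degradation, it was -0.39 ± 0.12 (adjusted p = 0.0313). Without the 4 libraries Fkbp11 and Edem1 were called and Dnajb11 was not (0.54, adjusted p = 0.0960). By library totals 2 of the 33 and 1225 of all genes were called, and 61.1% of all called genes were positive in place of 46.9%. Markers of other cell types also differed between the sexes on Control. Of 5 red blood cell markers 3 were higher in DBA/2J M, where the sum was 201 to 290.3 CPM against 44.5 to 116 in F, without overlap. In C57BL/6J 1 was higher, and the sum was 126 to 259 CPM in M and 61.2 to 194 in F. The 1 tested pancreatic acinar marker, Cela1, was higher in M of both strains. The 10 acinar markers summed to 14.1 to 24.8 CPM in DBA/2J M and 7.37 to 12.1 in F, and to 3.17 to 6.21 and 2.38 to 4.12 in C57BL/6J. Over all libraries Cela1 had a median of 6.44 CPM and each other acinar marker a median of 0 CPM, so these sums are mostly Cela1. Of 8 macrophage markers 2 were lower in C57BL/6J M, with sums of 124 to 271 CPM in M and 173 to 499 in F. Of 6 hepatocyte markers 3 were higher in C57BL/6J M and 1 in DBA/2J M. Of 6 stellate cell markers, 2 were lower in M than in F on Control in C57BL/6J, where their summed level was 277 to 448 CPM in M and 382 to 490 in F. Of 9 B and plasma cell markers 1 was lower there, and the sum was 5.06 to 19.7 CPM in M and 10.9 to 21.1 in F. The part of these markers in the differences of the 33 genes was not tested. Leaving out DBA/2J M Low Protein replicate 5 lowered the count on Low Protein in DBA/2J from 21 to 14, and Derl3 then differed by 1.16 in place of 3.02. Leaving out DBA/2J M Medium Protein replicate 1 lowered the count on Medium Protein in DBA/2J from 18 to 9.

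The Low Protein diet was followed by higher levels of 4 of the 33 genes in C57BL/6J M and lower levels of 0, where 9.78% of all genes were called and 4.08% were called higher. The 4 were Fkbp11, Derl3, Pdia6 and Creld2, from 4 of the 7 roles. Called in either direction, the share of the 33 genes was near that of all genes. The count by itself was therefore not read as a result about the 33 genes. Of the 33 genes 28 had a positive fold change, with a median of 0.26 against 0.01 over all genes, and 16 had an unadjusted p below 0.05. The shares of all genes with a positive value or such a p are not given here or below. Such counts were therefore not read as results about the 33 genes. Fkbp11 had 1.5 to 2.58 CPM (median 2.34) on Control and 2.48 to 5.03 (median 3.86) on Low Protein. Each Low Protein library was above the Control median, though the ranges overlapped, and the change was 0.74 ± 0.21 (1.67-fold, adjusted p = 0.0121). Derl3 had 0.478 to 1.2 CPM (median 0.785) on Control and 0.927 to 5.00 (median 3.24) on Low Protein. Its Low Protein libraries were spread widely, all 6 above the Control median, and the change was 1.94 ± 0.56 (3.84-fold, adjusted p = 0.0153).

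Pdia6, an isomerase that also binds the sensors, had 74.0 to 102 CPM (median 83.6) on Control and 85.7 to 161 (median 126) on Low Protein in C57BL/6J M. All 6 Low Protein libraries exceeded the Control median with overlap of the ranges, and the change was 0.51 ± 0.16 (1.43-fold, adjusted p = 0.0339). Creld2, a protein known to be induced by ER stress, had 10.2 to 16.0 CPM (median 13.0) on Control and 12.2 to 32.3 (median 29.4) on Low Protein. Its Low Protein libraries included 5 of 6 above the Control median, and the change was 0.97 ± 0.32 (1.95-fold, adjusted p = 0.0379). All 4 called genes have a promoter in the table: Derl3, Pdia6 and Creld2 hold an ERSE, printed above, and Fkbp11 does not. The median change was 0.29 over the 9 genes with an ERSE and 0.20 over the 18 genes without one, which is a description with no test.

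Close to the threshold were Dnajc3, of the BiP and GRP94 chaperone systems (0.29, adjusted p = 0.0531), Sdf2l1 (1.00, adjusted p = 0.0533), Eif2ak3 (0.35, adjusted p = 0.0730) and Xbp1 (0.34, adjusted p = 0.0802). Hspa5 had 348 to 566 CPM (median 414) on Control and 332 to 701 (median 606) on Low Protein in C57BL/6J M. The lowest Low Protein library was below every Control library, and the value of 0.32 had an adjusted p of 0.400. Low Protein replicates 1 and 4 were the low libraries for Hspa5, Creld2, Derl3, Pdia6 and Fkbp11. Derl2 (-0.19), Edem1 (-0.12), Derl1 (-0.06), Herpud1 (-0.06) and P4hb (-0.02) were the 5 genes with a negative value, none of them called. Without the 4 libraries, of which 2 are C57BL/6J M Control, 0 of the 33 were called in the edgeR fit and the median was 0.18. Derl3 was then at 1.88 (adjusted p = 0.0530), Fkbp11 at 0.66 (0.0694), Creld2 at 0.87 (0.122) and Pdia6 at 0.43 (0.152). Scaled by library totals, the median of all genes moved by 0.25, and 94.4% of called genes were higher in place of 41.7%. On that scale 22 of the 33 were called, all higher, with a median of 0.50, beside 5652 of all genes. Of 5 red blood cell markers 4 were higher on Low Protein in C57BL/6J M, their sum being 126 to 259 CPM on Control and 168 to 476 on Low Protein, and its part in these results was not tested. B and plasma cell markers, which mark cells rich in ER, summed to 5.06 to 19.7 CPM on Control and 5.73 to 10.5 on Low Protein, with 0 of 9 called.

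**Figure D3:**
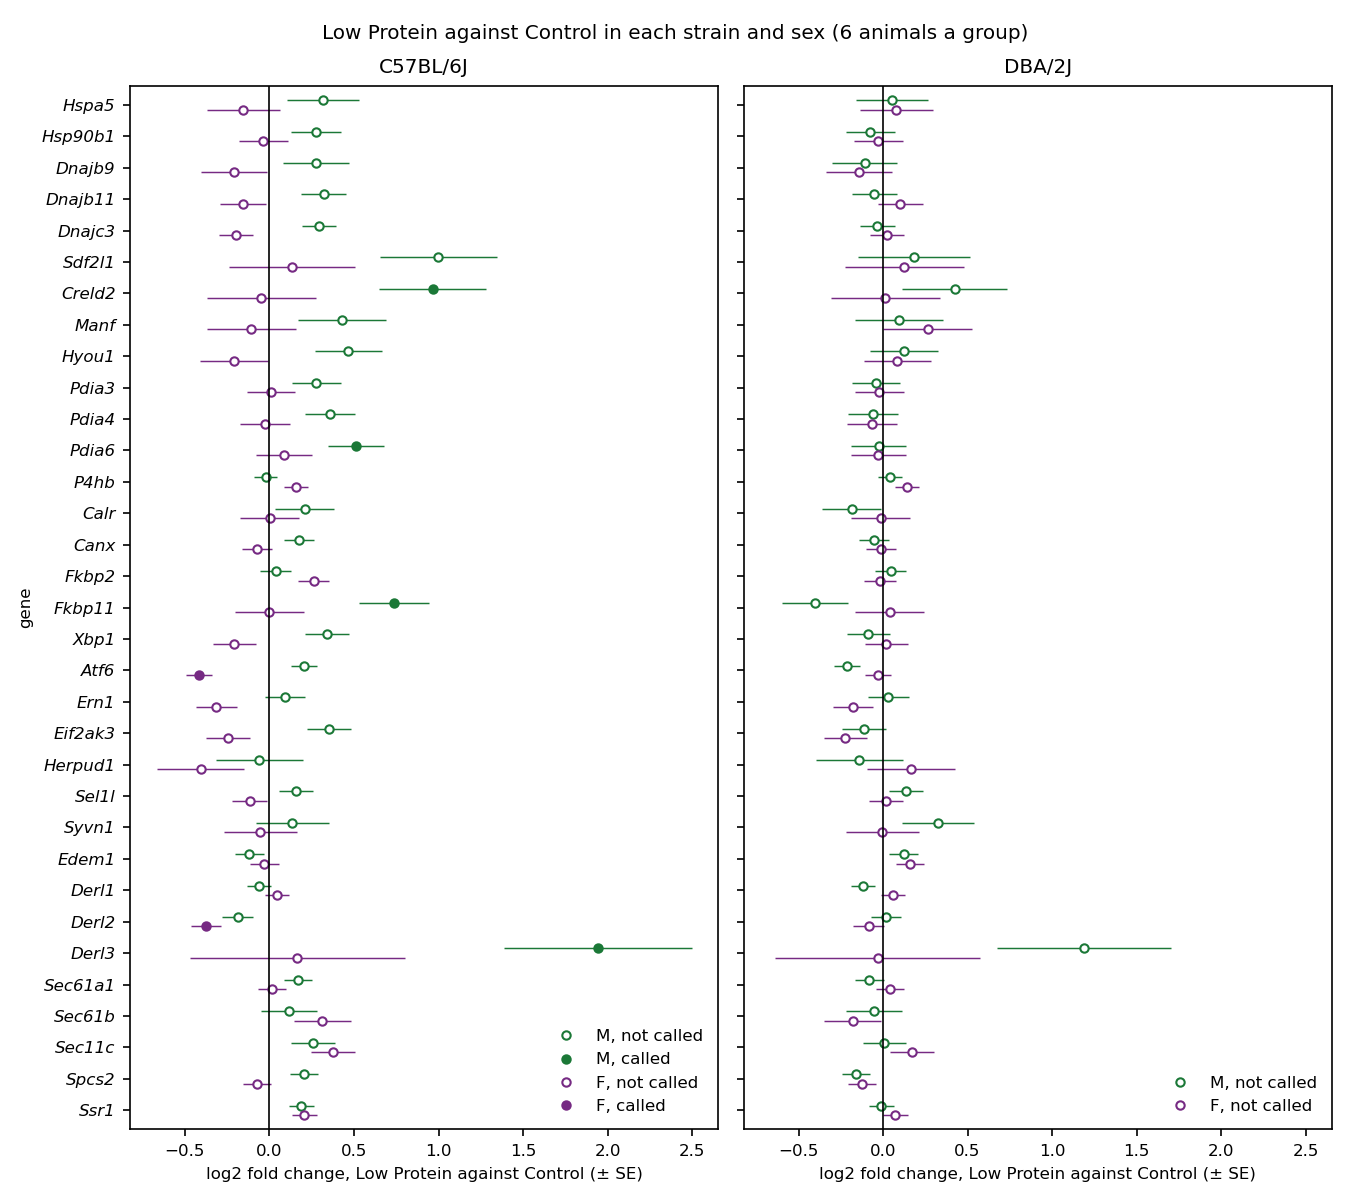
Log2 fold change of Low Protein against Control with its standard error for each of the 33 genes (rows) in M and F (colours) of C57BL/6J (left) and DBA/2J (right). Filled points were called. In C57BL/6J the 4 called M points lie to the right of 0 and the 2 called F points to the left, and no point was called in DBA/2J.

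In C57BL/6J F the Low Protein diet was followed by lower levels of 2 of the 33 genes and higher levels of 0 (3.25% of all genes called). Atf6 had 66.9 to 97.6 CPM (median 88.3) on Control and 57.7 to 70.5 (median 65.9) on Low Protein. Only the lowest Control library reached into the Low Protein range, and Atf6 fell by 0.42 ± 0.08 on the log2 scale (0.748-fold, adjusted p = 0.000576). Derl2 had 33.2 to 50.7 CPM (median 39.6) on Control and 28.8 to 33.7 (median 31.1) on Low Protein. The ranges overlapped at their edge, with 0 of 6 Low Protein libraries above the Control median, and Derl2 fell by 0.38 ± 0.09 (0.771-fold, adjusted p = 0.0105). The median of the 33 genes was -0.05 and 12 were positive. Both genes were called without the 4 libraries and without Low Protein replicate 1, the library low in hepatocyte markers. Derl2 was not when Control replicate 4 was left out (-0.30, adjusted p = 0.0731), and 0 genes were called when only the compared groups were fitted.

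In DBA/2J neither sex had a called gene among the 33, with 0.093% of all genes called in M and 0.816% in F. Unadjusted p-values below 0.05 numbered 3 and 1 in the edgeR fit, and DESeq2 called 0 in both. In DBA/2J M the median was -0.03, Derl3 was at 1.19 (adjusted p = 0.563) and Atf6 at -0.22 (adjusted p = 0.395). Derl3 had 0.740 to 4.04 CPM (median 1.45) on Control and 0.662 to 20.9 (median 1.31) on Low Protein in these M, where the high value is replicate 5 and the medians go the other way from the mean. In DBA/2J F the median was 0.01. By library totals 73.7% of the genes called in DBA/2J M were higher in place of 50% and 56.5% in DBA/2J F in place of 74.7%, with 0 of the 33 called in both.

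Averaged over the 4 combinations of strain and sex, 4 of the 33 genes were called (8.01% of all genes). The share of the 33 genes called was near that of all genes. Derl2 was at -0.16 ± 0.05 (adjusted p = 0.0198) and Atf6 at -0.12 ± 0.04 (0.0499). Sec11c was at 0.20 ± 0.06 (0.0386) and Ssr1, a translocon-associated subunit, at 0.11 ± 0.04 (0.0400). These changes are small beside the spread of single groups. Sec11c group medians on Control and Low Protein were 8.53 and 10.6 CPM in C57BL/6J M and 6.10 and 7.82 in F, 12.4 and 12.0 in DBA/2J M and 6.52 and 7.36 in F. Ssr1 had 56.6 and 66.1, 51.2 and 58.1, 62.9 and 58.0, and 51.5 and 54.0 CPM in the same order. Both were thus lower by median in DBA/2J M on Low Protein and higher in the other 3 combinations. Without the 4 libraries 1 gene, Derl2, was called (-0.18, adjusted p = 0.0110), and without C57BL/6J F Low Protein replicate 1 the count was 2. By library totals 90.5% of all called genes were higher in place of 47.9%, with a shift of 0.08 in the median of all genes. Called were then 5 of the 33, beside 2419 of all genes.

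**Figure D4:**
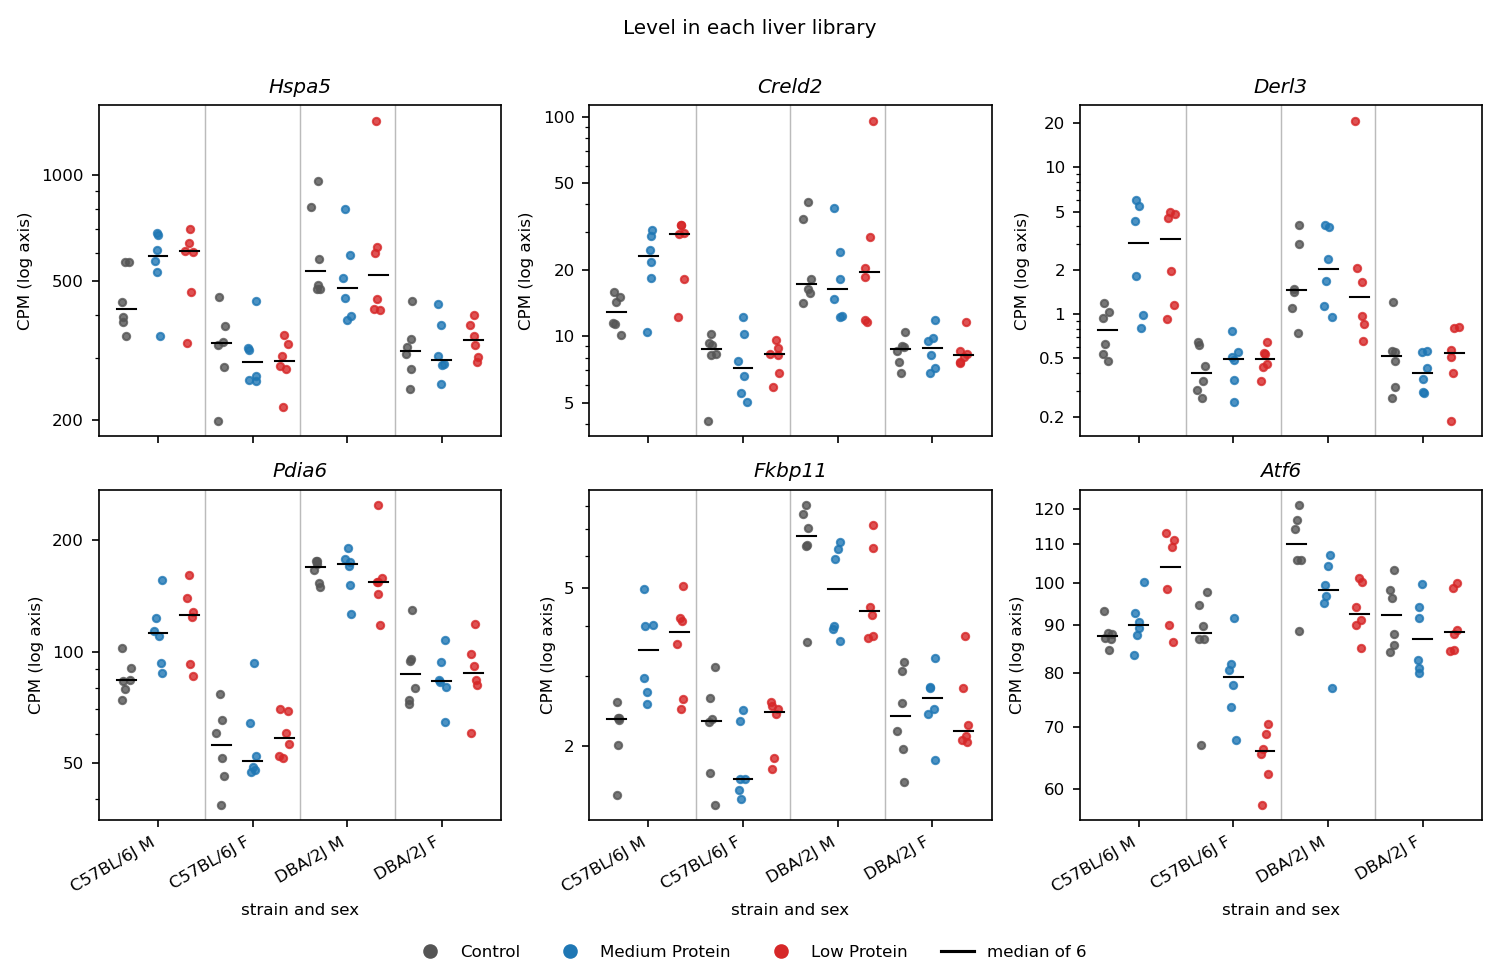
CPM (log axis) of Hspa5, Creld2, Derl3, Pdia6, Fkbp11 and Atf6 in each of the 72 libraries, by strain and sex and by diet (colours), with the median of 6 as a line. Creld2 on Low Protein in C57BL/6J M runs from 12.2 to 32.3, and the single DBA/2J M Low Protein library at 96.3 stands far above its group.

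The Low Protein response differed between the sexes of C57BL/6J for 3 of the 33 genes (4.56% of all genes called). Taken as M minus F, the difference was 0.62 ± 0.11 for Atf6 (adjusted p = 0.000357), 0.49 ± 0.14 for Dnajc3 (0.0347) and 0.60 ± 0.18 for Eif2ak3 (0.0453). Atf6 medians on Control and Low Protein were 87.6 and 104 CPM in M and 88.3 and 65.9 in F. Dnajc3 had 169 to 206 CPM (median 183) on Control and 182 to 262 (median 233) on Low Protein in M, and 139 to 188 (median 171) and 141 to 159 (median 144) in F. Eif2ak3 had 11.7 to 16.1 CPM (median 14.0) and 12.3 to 24.0 (median 17.1) in M, and 10.7 to 16.3 (median 12.9) and 8.99 to 12.7 (median 10.9) in F. For all 3 the M median was higher on Low Protein and the F median lower, with overlapping ranges for all 3 in both sexes. Of the 33 genes 26 had a positive difference, with a median of 0.35. Atf6 was called in each of 24 fits with 1 library left out, Dnajc3 was lost in 10 and Eif2ak3 in 14. Without the 4 libraries Atf6 was called (0.60, adjusted p = 0.00180), and Dnajc3 (0.0817) and Eif2ak3 (0.0540) were not. By library totals the median of all genes moved by 0.24, and 12 of the 33 and 2611 of all genes were called. Of all called genes 94.8% were positive in place of 40.6%.

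Between the sexes of DBA/2J the Low Protein response differed for 0 of the 33 genes, for 0% of all genes, and 0 of the 33 had an unadjusted p below 0.05 in the edgeR fit. DESeq2 called 0 of the 33 there. Between the strains in M it differed for 2 of the 33 (2.88% of all genes called). Taken as DBA/2J minus C57BL/6J, the difference was -1.14 ± 0.28 for Fkbp11 (adjusted p = 0.0138) and -0.42 ± 0.11 for Atf6 (adjusted p = 0.0204). Fkbp11 had medians of 2.34 and 3.86 CPM on Control and Low Protein in C57BL/6J M and of 6.74 and 4.36 in DBA/2J M, and Atf6 had 87.6 and 104 against 110.0 and 92.6. Both genes therefore had a higher median on Low Protein in C57BL/6J M and a lower one in DBA/2J M. Without the 4 libraries Fkbp11 was called (-1.07, adjusted p = 0.0495) and Atf6 was not (-0.41, adjusted p = 0.0532). Leaving out DBA/2J M Low Protein replicate 5 raised the count from 2 to 7. By library totals the median of all genes moved by -0.17, and 10.8% of called genes were positive in place of 68.5%. Called were then 5 of the 33, beside 995 of all genes. Between the strains in F, 0 of the 33 were called by edgeR (0.093% of all genes, 4 of the 33 with an unadjusted p below 0.05) and 1 by DESeq2. By library totals 16.7% of all genes called there were positive in place of 33.3%.

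The Medium Protein diet, compared with the same Control animals, called 0 of the 33 genes by edgeR in each of the 4 combinations. Of all genes it called 0.418% in C57BL/6J M, 0% in C57BL/6J F, 0.00516% in DBA/2J M and 0.00516% in DBA/2J F. The medians of the 33 genes were 0.21, -0.02, -0.09 and 0.00 in that order, and 12, 1, 1 and 0 genes had an unadjusted p below 0.05. In C57BL/6J M, where DESeq2 called 1 gene, 29 of the 33 values were positive. By library totals 1 of the 33 and 111 of all genes were called there, with 91.0% of all called genes higher in place of 72.8%. Derl3 had 0.807 to 5.97 CPM (median 3.06) on Medium Protein and was at 2.02 ± 0.56 against Control (adjusted p = 0.0810), beside 1.94 on Low Protein. Fkbp11 was at 0.68 (adjusted p = 0.135) and Xbp1 at 0.44 (adjusted p = 0.107), beside 0.74 and 0.34 on Low Protein. These values stand side by side and share their Control animals, so their likeness was not read as a result.

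Strain differences on Control were mixed in direction. In M, 13 of the 33 genes were called, 10 higher and 3 lower in DBA/2J, where 30.5% of all genes were called and 14.9% were called higher. In F, 4 were called, 2 higher and 2 lower (27.8% of all genes called, 13.8% higher). In F the share of the 33 genes called was below that of all genes. Fkbp11 had 1.5 to 2.58 CPM (median 2.34) in C57BL/6J M and 3.64 to 8.07 (median 6.74) in DBA/2J M, without overlap, a difference of 1.57 ± 0.21 (adjusted p = 4.08e-09). Pdia6 had 74.0 to 102 CPM (median 83.6) and 149 to 176 (median 169) in the same groups, again without overlap, and differed by 0.96 ± 0.17 (adjusted p = 3.64e-06). P4hb went the other way, with 875 to 1116 CPM (median 989) in C57BL/6J M and 673 to 792 (median 744) in DBA/2J M, a difference of -0.44 ± 0.07 (adjusted p = 7.8e-07) between groups that did not overlap. Pdia6 and P4hb, both disulphide isomerases, thus differed in opposite directions.

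Fkbp2 was also lower in DBA/2J M, with 8.82 to 11.4 CPM (median 9.66) against 11.6 to 16.5 (median 14.7), no overlap and a difference of -0.53 ± 0.09 (adjusted p = 4.38e-06). Calr, Sec11c, Dnajb11, Atf6, Sdf2l1, Eif2ak3, Pdia4 and Creld2 were higher in DBA/2J M and Edem1 lower. In F, Pdia6 was higher in DBA/2J by 0.69 ± 0.16 (adjusted p = 0.000774), with 38.5 to 77.1 CPM (median 55.8) in C57BL/6J and 72 to 129.6 (median 87.1) in DBA/2J. P4hb was lower by -0.40 ± 0.07 (adjusted p = 6.19e-06), with 693 to 889 CPM (median 799) and 554 to 664 (median 598). Ern1 was higher, with 38.3 to 53.6 CPM (median 42.7) and 56.5 to 67.5 (median 62.0), a difference of 0.48 ± 0.12 (adjusted p = 0.00142). Neither P4hb nor Ern1 overlapped between the strains in F, while Pdia6 did. Herpud1 was lower in DBA/2J F, with 182 to 289 CPM (median 245) and 91.2 to 203 (median 119.9), a difference of -0.79 ± 0.26 (adjusted p = 0.0164) that was lost when DBA/2J F Control replicate 4 was left out (0.0529). In M, the same gene had medians of 283 and 302 CPM and was not called. By library totals the median of all genes moved by 0.11 in M and 67.0% of called genes were higher in place of 48.9%.

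Within groups, the deviations of most folding genes from their group mean ran with those of Hspa5 from library to library. For each gene, the log2 CPM of a library minus its group mean was correlated with that of Hspa5 over the 72 libraries (32 relations, permutation p adjusted over them). The closest were Manf, a secreted ER protein that binds BiP (Pearson r = 0.97, Spearman rho = 0.96), Hyou1 (0.95, 0.94), Creld2 (0.94, 0.91), Dnajb11 (0.91, 0.90) and Hsp90b1 (0.89, 0.86). For these 5 the permutation p of 1e-05 is the smallest that the permutations can give, with an adjusted p of 1.78e-05 for r and 1.68e-05 for rho. Without the 2 libraries farthest from the median, DBA/2J M Low Protein replicate 5 and C57BL/6J M Low Protein replicate 1, r was 0.96, 0.94, 0.91, 0.89 and 0.87. Within the 4 combinations of strain and sex, r of Manf lay between 0.92 and 0.99. Other genes were less even. Ern1 had r of 0.61 in C57BL/6J M and 0.51 in DBA/2J M, against -0.27 and -0.30 in F of the same strains. Edem1 had 0.76 and 0.69 in M against -0.09 and -0.08 in F, and Syvn1 0.91 and 0.94 against 0.20 and 0.31. Herpud1 had 0.05 in C57BL/6J M and 0.79 in DBA/2J M. Each of these r rests on 18 libraries, and their differences were not tested. The lowest values were those of Ern1 (r = 0.30, rho = 0.25, p = 0.0357 and 0.0596, 0.20 without the 2), Fkbp2 (0.24, 0.15, p = 0.120 and 0.242, 0.11 without the 2) and Sec61b (0.20, 0.15, p = 0.229 and 0.269, 0.07 without the 2). Adjusted p of r was below 0.05 for 30 of 32 genes, and r exceeded 0.7 for 15 (12 without the 2 libraries). Among the 19329 other genes tested, r exceeded 0.7 for 6, or 0.0310% (5 without the 2 libraries), with a median of -0.01 against 0.67 for the 32. The 5th and 95th percentiles of r over those other genes were -0.31 and 0.33. Median r was 0.75 over the 8 other genes with an ERSE (0.64 to 0.94) and 0.52 over the 18 without (0.20 to 0.91), a description with no test. Genes with no promoter found, among them Manf and Hyou1, are in neither set. The libraries share their scaling and depth, which enter every gene of a library.

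**Figure D5:**
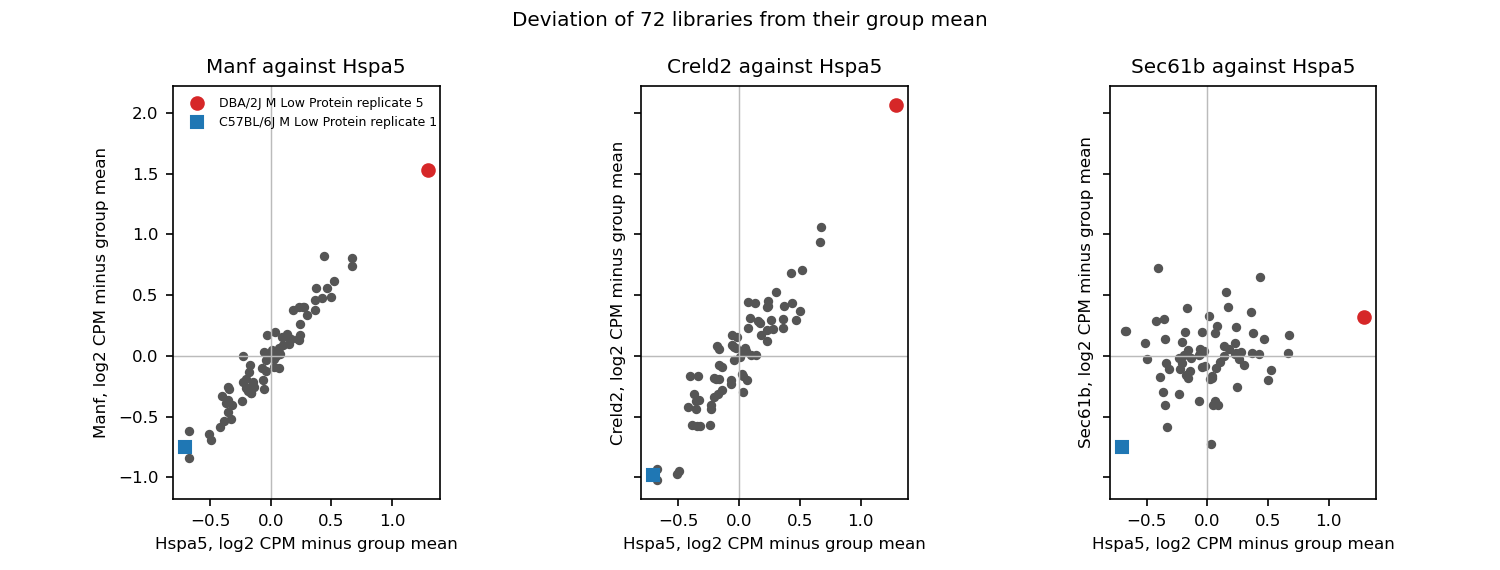
Log2 CPM minus the group mean of Manf, Creld2 and Sec61b (vertical axes) against that of Hspa5 (horizontal axes) in 72 libraries (points), with the libraries at both ends coloured. Manf and Creld2 follow Hspa5 closely (r = 0.97 and 0.94), and Sec61b does not (r = 0.20).

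DBA/2J M Low Protein replicate 5 lay 1.29 above its group mean in Hspa5, at 1434 CPM, and the median of the 33 genes lay 0.59 above. C57BL/6J M Low Protein replicate 1 lay at -0.71 in Hspa5, and 0 of the 33 genes were above their group mean there. Hepatocyte markers summed to 59675 and 64501 CPM in these libraries and B and plasma cell markers to 8.77 and 6.83 CPM, inside the ranges of the other libraries.

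Other genes of the same pathways, none of them among the 33, were counted in lists. In C57BL/6J M on Low Protein, where 9.78% of all genes were called and 4.08% were called higher, 2 of 25 further ER folding genes rose and 0 fell, namely Ero1lb, an oxidase that recharges the isomerases (0.62, adjusted p = 0.00608), and Txndc5 (0.26, adjusted p = 0.0497). Of 22 further degradation genes 1 rose, Ubxn4 (0.25), and 4 fell, March6 (-0.25, adjusted p = 0.000837), Aup1 (-0.26), Os9 (-0.24) and Erlec1 (-0.23). Of 28 translocation and N-glycosylation genes 4 rose and 0 fell, led by Rpn1, a subunit of the oligosaccharyltransferase (0.47, adjusted p = 0.000757), with Ssr2 (0.19), Srpr (0.21) and Ost4 (0.29). Of 10 tested stress transducers 1 rose, Mbtps1, the protease that cleaves ATF6 (0.21, adjusted p = 0.00538).

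Of 16 genes of the PERK and ATF4 arm 2 rose and 0 fell in C57BL/6J M on Low Protein, beside the same 9.78% of all genes. The share called was near that of all genes, and whether PERK took part in these rises was not tested. Asns, asparagine synthetase, had 0.321 to 2.81 CPM (median 0.912) on Control and 9.65 to 25.4 (median 17.3) on Low Protein, without overlap, and rose by 3.76 ± 0.60 (adjusted p = 9.11e-06). Fgf21, a hormone secreted by the liver, rose by 2.00 (adjusted p = 0.000557). Atf4 (-0.05, adjusted p = 0.867), Ddit3 (-0.07, adjusted p = 0.902) and Trib3 (-0.76, adjusted p = 0.111) did not pass the test. In C57BL/6J F and DBA/2J M, 0 genes of the 5 lists were called, and in DBA/2J F 1 folding gene, Ganab, a glucosidase that trims glycans, rose (0.22, adjusted p = 0.0259). Asns, though not called, had 0 to 7.43 CPM (median 0.256) on Control and 1.32 to 8.36 (median 2.62) on Low Protein in C57BL/6J F. Its medians on Control and Low Protein were 0.580 and 0.396 CPM in DBA/2J M and 0.0816 and 0.0504 in DBA/2J F. Averaged over the 4 combinations, 2 genes of the PERK and ATF4 arm fell, Trib3 (-0.70, adjusted p = 0.00143) and Vldlr, and 0 rose. In that comparison 8.01% of all genes were called, which is near the share of the arm, and the other lists are not given for it.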

How the data were processed

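Levels in the report come from RNA sequencing of mouse liver, 72 libraries in 12 groups of 6, with replicate numbers given in accession order. Per the labels' protocols, stranded libraries of polyadenylated RNA were run on 2 lanes and reads of both lanes were merged. Per the submitters' processing notes, RSEM, edgeR, limma and R 3.4.3 were used. Aligner, genome build and annotation: not given in the sources used here. What the authors deposited are RSEM expected counts per gene, of which 11.6% were not whole and were rounded here. The authors also deposited a table of 17575 genes with log2 fold changes and raw and adjusted p-values per diet comparison, and an F statistic, a score that was not used. In the authors' deposited table the same 4 of the 33 genes passed 0.05 on Low Protein in C57BL/6J M and the same 2 in C57BL/6J F, and 0 elsewhere.

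Gene symbols were matched to GENCODE M21 names (51633 identifiers). All 72 libraries entered 1 quasi-likelihood model of the 12 group means in edgeR 4.0.16 (R 4.3.3, TMM scaling, filterByExpr, common coefficient of variation 0.207), with 22 two-sided comparisons, 5 of them added after the data were seen. Fold changes are log2 with the standard error. Alternatives were RLE factors, library totals, no filter, only the compared groups, DESeq2 1.42.0, limma-voom 3.58.1, leaving out each replicate and, added after the data were seen, leaving out 4 libraries with over 3% ribosomal-like RNA. The fit was tested on simulated data. Permutation tests used 100000 draws. No 2 libraries were identical. Total counts per library were 26.9 to 38.4 M. The 33 genes, the lists and the rule for genes shown in full (those called on Low Protein, and up to 4 with the smallest p in each other comparison) were chosen with earlier results of these data known. Promoter sequences are from RefSeq, GRCm38.p6. One animal per library is taken from the labels. The edgeR tests set each difference against the spread between animals within groups, estimated over all 12 groups together. That spread is not the one of the compared groups alone.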

Additional observations from a re-analysis of the deposited data

Results flagged for a closer look

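In groups of 6, a sample was singled out where its gap to the nearest other exceeded Dixon's 95% limit, which chance does in about 1 in 20 groups. Of 192 groups tested (15 genes and the summed level), 17 held such a sample, and 9 of the 17 were DBA/2J M Low Protein replicate 5. That library was far above its group in Derl3 (20.9 CPM), Creld2 (96.3 CPM), Dnajb11 (91.0 CPM), Dnajc3 (273 CPM), Herpud1 (599.8 CPM), Pdia6 (249 CPM), Sec11c (18.9 CPM), Ssr1 (72.5 CPM) and the summed level of the 33 genes (8279 CPM).

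The other samples were spread over 8 libraries, all of F. High ones were Creld2 in DBA/2J F Low Protein replicate 2 (11.7 CPM), Derl3 in DBA/2J F Control replicate 6 (1.2 CPM), Dnajc3 in C57BL/6J F Low Protein replicate 1 (159 CPM) and Pdia6 in C57BL/6J F Medium Protein replicate 6 (93.0 CPM). Low ones were Atf6 in C57BL/6J F Control replicate 3 (66.9 CPM), Creld2 in C57BL/6J F Control replicate 1 (4.14 CPM), Ern1 in C57BL/6J F Medium Protein replicate 3 (33 CPM) and Ssr1 in DBA/2J F Medium Protein replicate 4 (48.8 CPM).

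Effects that differed between groups by their own test were the Low Protein responses of Atf6 (0.62), Eif2ak3 (0.60) and Dnajc3 (0.49) between M and F of C57BL/6J, and those of Fkbp11 (-1.14) and Atf6 (-0.42) between the strains in M. The sex difference on Control differed between the strains for Fkbp11 (1.46), Dnajb11 (0.58) and Edem1 (-0.39).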

How the results depend on the processing

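By library totals in place of TMM, the number of the 33 genes called was 22 for Low Protein in C57BL/6J M (4 by TMM), 12 for its difference between the sexes of C57BL/6J, 5 for its difference between the strains in M, 1 for Medium Protein in C57BL/6J M, 4 and 14 for sex on Control in C57BL/6J and DBA/2J, and 16 and 10 for sex on Medium Protein. On that scale, calls over all genes numbered 5652, 2611, 995, 111, 8941 and 7288, and 6469 and 6476 in the same order. That scale reversed the sex difference of P4hb (-0.0018), Canx (-0.0798) and Edem1 (-0.0099) on Control in C57BL/6J and of Atf6 (-0.0490), Derl1 (-0.0155), Spcs2 (-0.0388) and Ssr1 (-0.0806) in DBA/2J. With no filter on low counts 2 genes were called for Low Protein in C57BL/6J M, 1 for the mean of the combinations, 1 for its difference between the sexes of C57BL/6J and 1 for the sex difference between the strains, where more genes were tested. Without the 4 libraries with over 3% ribosomal-like RNA the counts were 0 for Low Protein in C57BL/6J M and 1 each for the mean of the combinations, the difference between the sexes of C57BL/6J and that between the strains in M. With only the compared groups fitted, 0 were called for Low Protein in C57BL/6J F, limma-voom gave 2 for the mean of the combinations, and DESeq2 gave 1 for Medium Protein in C57BL/6J M and 1 for the difference between the strains in F. The cause was not tested.

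Leaving out 1 replicate at a time gave 2 to 8 called genes for Low Protein in C57BL/6J M (2 without Control replicate 1, 8 without Low Protein replicate 4), 1 to 3 in C57BL/6J F, 1 to 5 for the mean of the combinations (1 without C57BL/6J M Control replicate 1) and 0 to 2 for Medium Protein in C57BL/6J M. Differences of the Low Protein response ran from 1 to 4 between the sexes of C57BL/6J, from 1 to 7 between the strains in M and from 0 to 1 in F. Sex on Control gave 11 to 19 and 18 to 26, on Medium Protein 25 to 28 and 9 to 20, and on Low Protein 24 to 28 and 14 to 25, in C57BL/6J and DBA/2J. Strain gave 10 to 15 in M and 3 to 6 in F, and the sex difference between the strains 1 to 4. Pdia6 and Creld2 lost their Low Protein call in C57BL/6J M in 8 of 12 such fits (largest adjusted p 0.122 and 0.0919), Fkbp11 in 1 (0.62 at an adjusted p just above 0.05, without Low Protein replicate 2) and Derl3 in 0. For the mean of the combinations Atf6 lost it in 34 of 48, Ssr1 in 19, Sec11c in 12 and Derl2 in 0. No paired analysis was possible because the replicate numbers were given in accession order and mark no shared animal or batch.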
